A study of Mus musculus with 3 samples.

Results

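The messenger RNAs of 7 chemokines and 1 acute phase protein were followed across the cells of cultured mouse thymus: Ccl11, Ccl20, Cxcl1, Cxcl5, Cxcl10, Cxcl14, Ccl2 and Saa3, which are 8 of the 32285 genes in the count table. The genes had been picked from the counts of these same epithelial, mesenchymal and macrophage cells and of the 2 culture types, so their levels and differences are given as a description and without a test. Cells of 2 culture types were compared on day 13. In organoid reaggregate fetal thymic organ cultures (ORFTOC), thymic epithelial cells (TECs) that had been grown as organoids with FGF7 were reaggregated with thymus cells of younger embryos, depleted of EpCAM-positive cells, and with mouse embryonic fibroblasts. In fetal thymic organ cultures (FTOC), the thymic lobes of the younger embryos were cultured intact, with their own epithelium and mesenchyme. Per the labels the genotype was wild type and there was no treatment. The embryos were of the C57BL/6J strain, and the strain of the fibroblasts is not given in the sources used here. Both culture types were kept in the same medium with FGF7 on filters at the air-liquid interface. The kinase inhibitor Thiazovivin was in the reaggregate medium at first and in that of the organoids before, and whether the lobes also received it is not given in the sources used here. For each type 2 cultures were pooled, marked with an antibody that carries an oligonucleotide (a hashtag), and run mixed in 1 lane of droplet single-cell RNA sequencing. Each pool is therefore 1 sample, and the reaggregates differ from the lobes in the age and history of the epithelium, in the added fibroblasts and in the reaggregation, which cannot be told apart here.

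Chemokines are small secreted proteins that guide leukocytes through G protein-coupled receptors. CCL11, or eotaxin-1, acts on CCR3 of eosinophils, and interleukins 4 and 13 are well known inducers of its gene in fibroblasts and epithelia. CXCL1 and CXCL5 act on CXCR2 and draw neutrophils, CCL2 draws monocytes through CCR2, CCL20 acts on CCR6, and CXCL10 is an interferon-inducible ligand of CXCR3 on activated T cells and natural killer cells. CXCL14 is a chemokine of epithelia and fibroblasts without a settled receptor, and SAA3 is a serum amyloid A protein that is made outside the liver during inflammation. In the thymus itself, other chemokines (CCL19, CCL21, CCL25 and CXCL12) are the ones known for bringing progenitors in and moving thymocytes.

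Several of these genes are textbook targets of NF-kB and of interferon-activated factors, so the stretches upstream of their starts are shown where they hold the matching letters. RefSeq (assembly GRCm38.p6) gave a promoter for 5 of the 8 genes, namely Ccl20, Cxcl1, Cxcl10, Cxcl14 and Saa3. The 250 bases before each start were searched on both strands for the NF-kB consensus, for GAAANNGAAA (the interferon-stimulated response element, ISRE), for TTCNNNGAA (the interferon-gamma-activated site, GAS) and for TATAAA. Of all 32851 promoters, 3.9% held the NF-kB consensus, 2.98% the ISRE letters, 7.02% the GAS letters and 12.4% TATAAA. The NF-kB consensus began 80 bases before the start of Ccl20 on the reverse strand and 71 bases before that of Cxcl1, where a second match on the reverse strand was shifted by 1 base. Cxcl10 held the consensus 159 and 103 bases before its start and the ISRE letters 213 bases before it. The lines below run 5′ to 3′ on the strand of the gene, with the matched letters in capitals.
Ccl20, chr1:83116656-83116725, plus strand: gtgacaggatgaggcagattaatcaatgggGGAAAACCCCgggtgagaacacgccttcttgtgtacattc
Cxcl1, chr5:90891144-90891214, plus strand: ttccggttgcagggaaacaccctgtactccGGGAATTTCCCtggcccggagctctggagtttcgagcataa
Cxcl10, chr5:92348953-92349132, minus strand: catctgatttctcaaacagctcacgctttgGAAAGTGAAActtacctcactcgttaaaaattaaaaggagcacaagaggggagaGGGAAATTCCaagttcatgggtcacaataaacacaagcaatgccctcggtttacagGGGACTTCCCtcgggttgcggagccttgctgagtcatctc

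The windows of Saa3 and Cxcl14 held the ISRE letters 125 and 172 bases before the start, and that of Cxcl14 also the GAS letters 191 bases before it. Both windows lie inside the longest extent that RefSeq gives these genes, and their bases are not shown. Neither held the NF-kB consensus, and TATAAA was found in none of the 5 windows. These matches describe letters and not binding. On the same build, Ccl2 (chr11:82035577-82037452) and Ccl11 (chr11:82057832-82062955) are neighbours on chromosome 11, and Cxcl5 (chr5:90759298-90761625), Cxcl1 (chr5:90891245-90893121) and Cxcl10 (chr5:92346638-92348889) lie on chromosome 5. Ccl20 is at chr1:83116766-83119167, Cxcl14 at chr13:56288643-56296811 and Saa3 at chr7:46711998-46719615. All are protein-coding genes.

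After filtering, 8392 cells remained, 4252 from ORFTOC and 4140 from FTOC. Expression is given as UMIs (unique molecular identifiers) per 1000000 UMIs of the same cells, or CPM, with 95% intervals that cover counting error only. Epithelial cells numbered 1230 in ORFTOC and 953 in FTOC, with medians of 13331 and 12135 UMIs per cell. Mesenchymal cells numbered 204 and 56 (19338 and 15501 UMIs per cell) and macrophages 143 and 44 (20153 and 13749 UMIs per cell). Epithelial, mesenchymal and immune cells had been told apart with the same marker genes, so their sums describe the populations and are no check of the names. Epithelial markers summed to 10575 and 6548 CPM in the epithelial cells of the 2 pools. In mesenchymal cells and macrophages they summed to between 49.0 and 171 CPM. Mesenchymal markers summed to 25595 and 25234 CPM in mesenchymal cells. CD4 and CD8 double-positive (DP) thymocyte-like cells, 2034 cells with medians of 1585 and 1620 UMIs, served as a background population that should lack these genes.

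By their share of UMIs the genes fell into a mesenchymal, an epithelial and a mixed set. Of the UMIs of Ccl2, 83.5% lay in mesenchymal cells, although these were only 260 of 8392 cells, as did 76.3% of Cxcl1 and 75.9% of Saa3. Epithelial cells held 93.7% of Cxcl14, 74.2% of Cxcl10 and all 151 UMIs of Ccl20. By level Cxcl10 was broader, at 588 CPM in epithelial cells, 467 CPM in macrophages and 298 CPM in mesenchymal cells. Natural killer or innate lymphoid-like cells had 469 CPM of it. In FTOC macrophages (1066 CPM) were above the epithelium (757 CPM), and in ORFTOC they were below it (330 against 468 CPM). Ccl11 and Cxcl5 were split, with 70.2% and 69.9% of UMIs in the far more numerous epithelial cells, but with a higher level per UMI in mesenchymal cells. Over both pools Ccl11 reached 332 CPM in mesenchymal cells (317 to 348) and 155 CPM in epithelial cells (151 to 160). Ccl20 had 0 UMIs in mesenchymal cells and macrophages. DP thymocyte-like cells held between 0 CPM of Ccl20 and 13.8 CPM of Cxcl10. The map of levels by cluster shows that the 8 genes did not share one cell type.

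**Figure D1:**
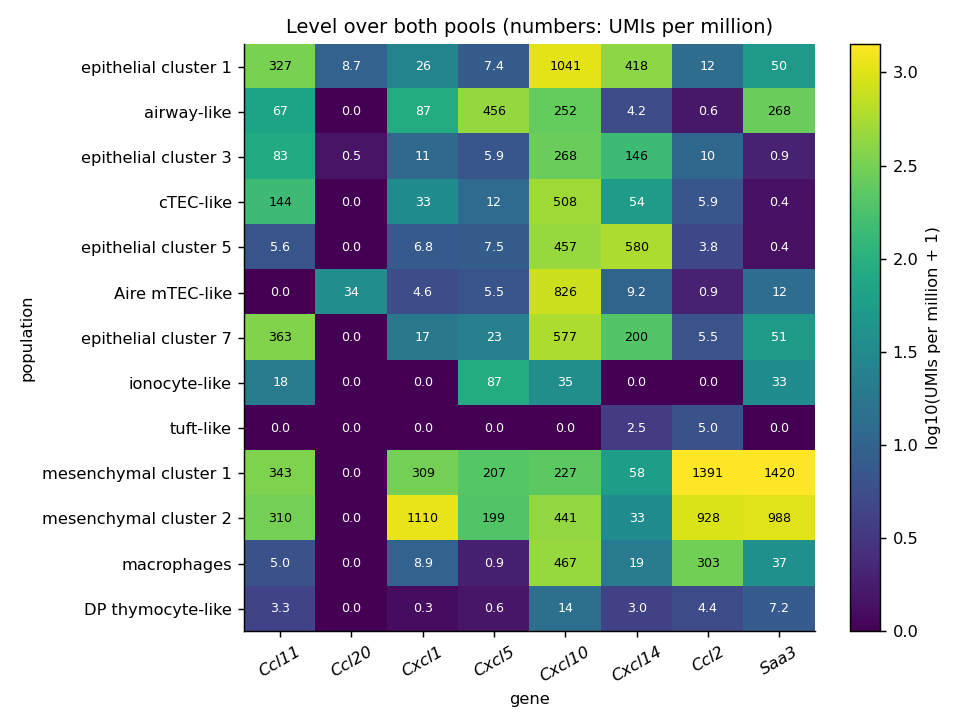
Level of each gene (columns) in the epithelial and mesenchymal clusters, macrophages and DP thymocyte-like cells (rows), over both pools. Colour is log10(CPM + 1) and the printed numbers are CPM. Ccl2 and Saa3 peak in mesenchymal cluster 1, Cxcl1 in mesenchymal cluster 2, Cxcl5 in airway-like cells, Cxcl10 in epithelial cluster 1 and Cxcl14 in epithelial cluster 5.

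Within the epithelium the genes were concentrated in different clusters. Cxcl5 was highest in airway-like cells, at 456 CPM (438 to 475), above both mesenchymal clusters, which at 207 and 199 CPM did not differ beyond counting error. Saa3 was also highest among epithelial clusters in airway-like cells (268 CPM), below mesenchymal clusters 1 and 2 (1420 and 988 CPM). Cxcl14 led in epithelial cluster 5 (580 CPM, 552 to 610), an unnamed cluster led by Lypd1 and Prss23, followed by the unnamed cluster 1 at 418 CPM. Cxcl10 was highest in cluster 1 (1041 CPM, 1020 to 1063), a cluster led by Rgs5, Acta2 and Ccl19, and next in Aire mTEC-like cells (826 CPM). Cxcl1 was highest in mesenchymal cluster 2 (1110 CPM, 1062 to 1160), which also expressed Ccl19 and Cxcl13, and reached 309 CPM in mesenchymal cluster 1. For Ccl11, epithelial cluster 7 (363 CPM), mesenchymal cluster 1 (343 CPM), epithelial cluster 1 (327 CPM) and mesenchymal cluster 2 (310 CPM) overlapped in their intervals from each rank to the next. Cluster 7 is led by T cell genes such as Cd3d. Tuft-like cells, 25 in all, held 0 UMIs of 6 of the 8 genes.

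Between pools, the genes past 2-fold were higher in ORFTOC in the epithelium and lower in the other 2 populations, where the calls rested on few cells. A gene was counted as higher or lower when its level differed at least 2-fold and reached 20 CPM in the higher pool. In epithelial cells, 4 of the 6 genes at that level were higher in ORFTOC (Ccl11, Saa3, Cxcl5 and Cxcl1) and 0 were lower, while of all 7048 genes at that level 3.05% were higher and 1.52% lower. In mesenchymal cells, 0 of 7 were higher and 3 were lower (Ccl11, Cxcl10 and Cxcl14), against 1.74% and 2.94% of 6766 genes. Without the 5 richest cells of each pool, 2 were higher and 1 lower there, and Ccl11 and Cxcl10 were also under 2-fold with hashtags assigned by ratio. In macrophages, 0 of 4 were higher and 4 were lower (Cxcl10, Cxcl14, Ccl2 and Saa3), against 2.2% and 5.35% of 6353 genes. The macrophage count was 1 without the 5 richest cells, with Cxcl10 at 0.70. It was 2 with free RNA subtracted, with Saa3 at 1.80 and its FTOC value set to the limit of 3 UMIs. The median log2 ratio of the genes at that level was 1.82, -0.39 and -1.35 in the 3 populations, where all genes had medians of 0.01, -0.10 and -0.11. Since these counts helped to choose the genes, nothing is read from the excess over all genes.

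**Figure D2:**
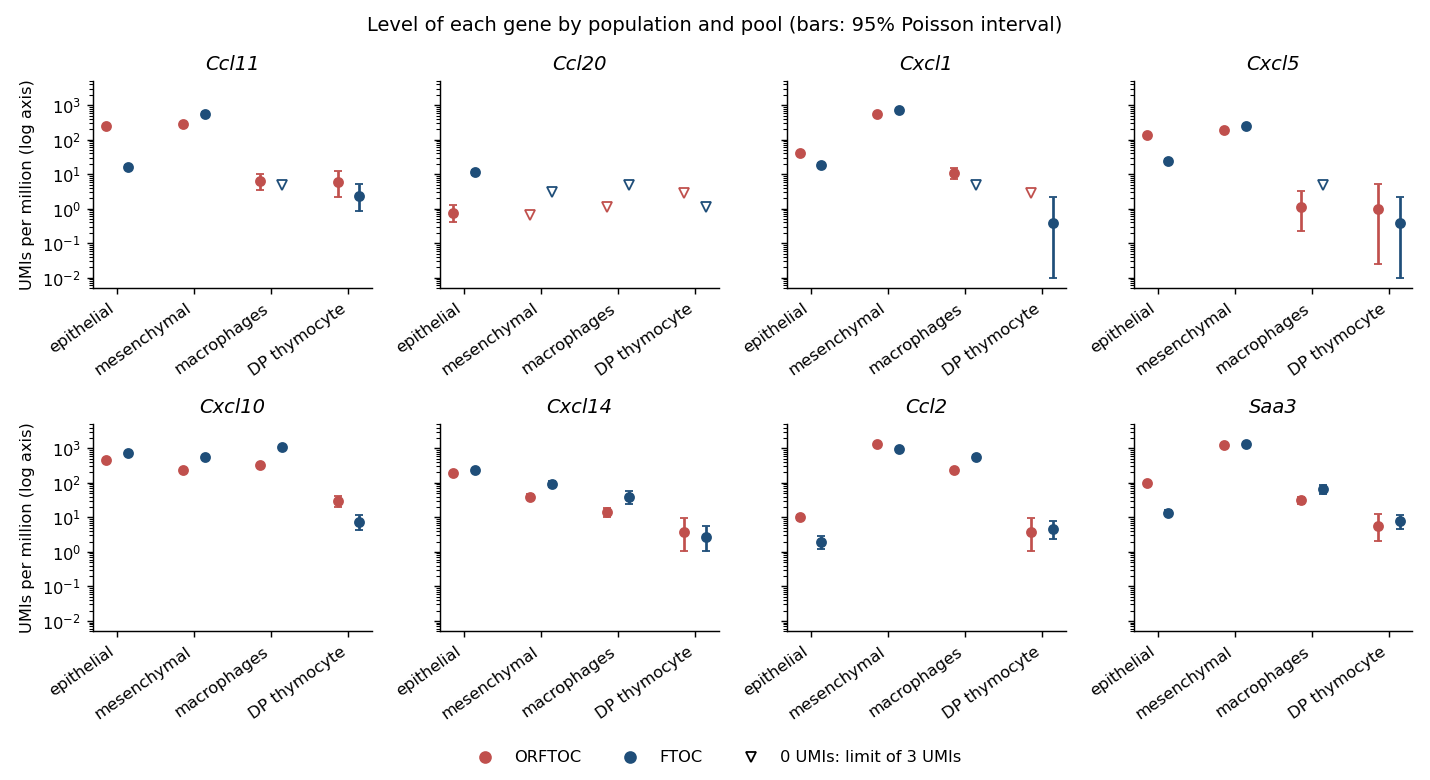
Level of each gene by population, in CPM on a log axis, in ORFTOC (red) and FTOC (blue) cells. Bars are 95% Poisson intervals and open triangles mark 0 UMIs, drawn at the level of 3 UMIs. Ccl11, Saa3, Cxcl5 and Cxcl1 are higher in ORFTOC among epithelial cells and not among mesenchymal cells.

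**Figure D3:**
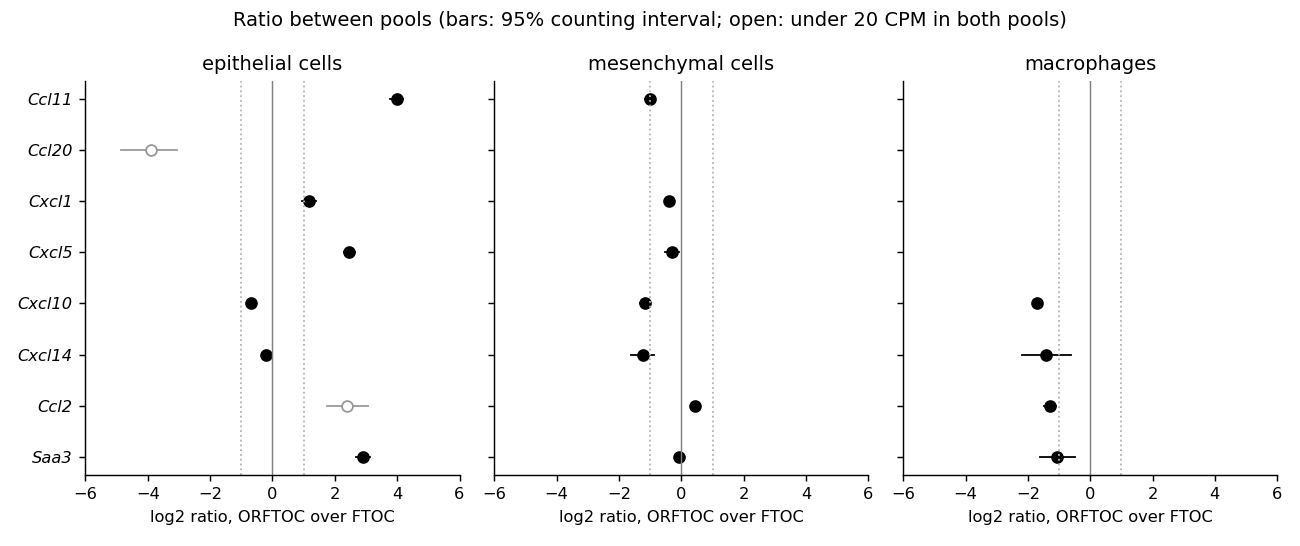
Log2 ratio of ORFTOC over FTOC for each gene in epithelial cells, mesenchymal cells and macrophages, with 95% counting intervals. Dotted lines mark 2-fold, open points have under 20 CPM in both pools, and genes with under 3 UMIs in a pool are left out. Ccl11 is farthest to the right in epithelial cells, at 3.98, and lies at -1.01 in mesenchymal cells.

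Ccl11, the eotaxin gene, showed the largest difference. In epithelial cells 4399 UMIs (254 CPM, 247 to 262) were found in ORFTOC and 198 UMIs (16.1 CPM, 13.9 to 18.5) in FTOC, a 15.8-fold difference (13.7 to 18.3). It ranked 3 from the top among all genes at that level. In mesenchymal cells the order was the opposite, with 281 CPM in ORFTOC and 565 CPM in FTOC, a log2 ratio of -1.01 (-1.15 to -0.86), just past the 2-fold limit. The ratio was -0.12 with hashtags assigned by ratio, which gave 379 ORFTOC and 31 FTOC mesenchymal cells in place of 204 and 56. It lay between -0.82 and -0.89 in 5 other settings. The ORFTOC epithelium thus had a level near that of the mesenchyme of the same pool, and the FTOC epithelium did not. Macrophages held 17 UMIs in ORFTOC and 0 in FTOC.

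More of the ORFTOC epithelial cells expressed Ccl11. Cells with at least 5 UMIs of Ccl11 were 138 of 1230 in ORFTOC (11.2%, 9.51 to 13.1) and 8 of 953 in FTOC (0.84%, 0.36 to 1.65), and in ORFTOC they held 95.3% of the gene's UMIs. At least 1 UMI was found in 21.2% and 4.51% of epithelial cells and in 0.59% of DP thymocyte-like cells. With every cell thinned to 1000 UMIs these shares were 9.35%, 1.05% and 0.47%. Of the 138 rich cells all carried Epcam and none carried Col1a1, the type I collagen gene that was found in every one of the mesenchymal cells rich in Ccl11 and in 2.11% of the other ORFTOC epithelial cells. Other stromal and leukocyte genes were more frequent in the rich cells, with Col3a1 in 13.0% against 4.67% of the other cells, Ptprc in 11.6% against 8.15% and Pdgfra in 4.35% against 3.02%. The part of these transcripts in the result was not tested. Mesenchymal marker genes summed to 59.9 CPM in ORFTOC and 30.6 CPM in FTOC epithelium, with 7 of 7 detected in each. With cells that carried Ptprc or Pdgfra left out, the log2 ratio was 3.79 in place of 3.98.

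In each of the 7 epithelial clusters with UMIs of Ccl11 the ORFTOC level was the higher one. Cluster 1 had 79 rich cells among the 368 from ORFTOC, or 21.5% (17.4 to 26.0), but only 4 among the 273 from FTOC, or 1.47% (0.40 to 3.71), with levels of 533 and 39.9 CPM. Among cTEC-like cells, which resemble cortical TECs, 30 of 252 ORFTOC cells and 0 of 32 FTOC cells did, and 658 UMIs stood against 1. In airway-like cells 347 UMIs (85.1 CPM) stood against 0. The ratio was 31.5 with 3 UMIs set for the pool without any, and the lower limit of its counting interval was 25.5. Cluster 3, led by Ndufa4l2, Igfbp2 and Aqp3, had 293 and 10.5 CPM, and cluster 7 had 541 and 41.1 CPM. Aire mTEC-like and tuft-like cells had no Ccl11 in either pool, which with 105 and 25 cells limits the share of cells with a UMI only loosely.

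**Figure D4:**
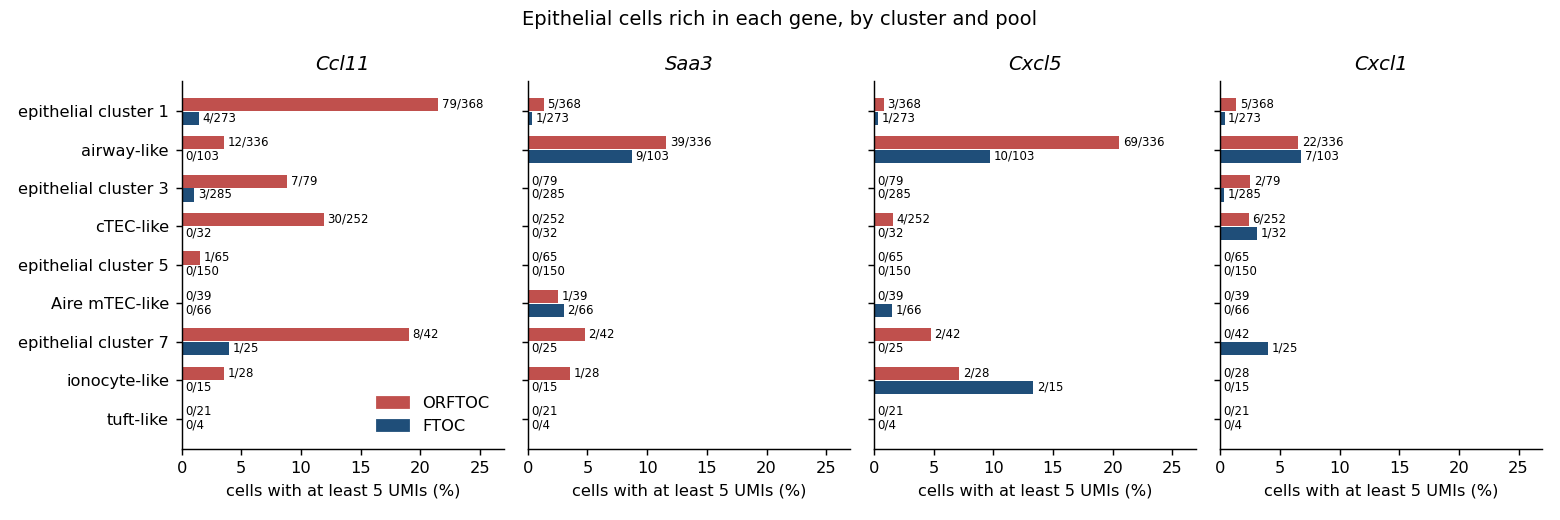
Share of cells with at least 5 UMIs of Ccl11, Saa3, Cxcl5 and Cxcl1 in each epithelial cluster, in ORFTOC (red) and FTOC (blue), with the number of such cells and of all cells beside each bar. Ccl11-rich cells occur in 7 of 9 clusters in ORFTOC, whereas the cells rich in the other genes are mostly airway-like.

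Within the epithelium, Cxcl5 and Cxcl1, the ligands of the neutrophil receptor, were highest in airway-like cells. In the epithelium as a whole Cxcl5 had 134 CPM in ORFTOC (129 to 140) and 24.3 CPM in FTOC (21.6 to 27.2), a log2 ratio of 2.47 (2.29 to 2.65). The airway-like cluster had 69 cells with at least 5 UMIs among 336 in ORFTOC, or 20.5% (16.3 to 25.3), and 10 among 103 in FTOC, or 9.71% (4.76 to 17.1), and its levels were 532 and 178 CPM, a log2 ratio of 1.58. Airway-like cells were 336 of 1230 epithelial cells in ORFTOC and 103 of 953 in FTOC. With both pools weighted to the same mix of clusters the ratio for Cxcl5 was 1.41. In ionocyte-like cells, 43 in all, Cxcl5 went the other way, with 64.2 CPM in ORFTOC and 142 CPM in FTOC from 30 and 27 UMIs. In mesenchymal cells Cxcl5 was at 196 and 242 CPM, less than 2-fold apart.

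Cxcl1 was the weakest of the 4 epithelial differences. It had 40.3 CPM in ORFTOC (37.3 to 43.4) and 18 CPM in FTOC (15.7 to 20.5), a log2 ratio of 1.16 (0.94 to 1.39). Within airway-like cells, its highest epithelial cluster, the pools did not differ beyond counting error, at 88.3 and 81.9 CPM (log2 ratio 0.11, -0.23 to 0.46). There 22 of 336 and 7 of 103 cells had at least 5 UMIs. In cluster 1 the levels were 33.8 and 14.1 CPM (log2 ratio 1.26, 0.80 to 1.74). Only 5 of 368 ORFTOC and 1 of 273 FTOC cells there had at least 5 UMIs, shares that overlap. The ratio was 0.36 with the same mix of clusters, 0.61 with hashtags assigned by ratio and 0.91 with doublets of a pool kept, each under 2-fold. In mesenchymal cells Cxcl1 was at 544 and 712 CPM, and at 1046 and 1501 CPM in mesenchymal cluster 2, lower in ORFTOC but less than 2-fold.

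Saa3 was held by few cells with many UMIs. In the epithelium it had 102 CPM in ORFTOC (97.7 to 107) and 13.7 CPM in FTOC (11.7 to 15.9), a log2 ratio of 2.91 (2.68 to 3.14), and 48 of 1230 cells held 95.9% of the ORFTOC UMIs. Of the cells with at least 5 UMIs, 39 of 48 in ORFTOC and 9 of 12 in FTOC were airway-like. Among airway-like cells they made up 11.6% (8.39 to 15.5) and 8.74% (4.07 to 15.9), which overlap, while the levels were 320 and 76.5 CPM. A difference in the share of rich cells was thus not detectable in airway-like cells at this number of cells. Over all epithelial cells, whatever their cluster, the richest ORFTOC cell held 226 UMIs. In FTOC 1 epithelial cell held 57 of the 168 UMIs. With the same mix of clusters in both pools the epithelial ratio was 2.08. In macrophages Saa3 was at 31.2 CPM in ORFTOC and 64.9 CPM in FTOC, where 1 cell held 39 of 41 UMIs and free RNA would give 60.9 CPM, an estimate that also gave 26.5 CPM of Ccl11 where 0 UMIs were found. With free RNA subtracted the macrophage ratio turned from -1.06 to 1.80. The FTOC value that remained was under the limit of 3 UMIs and was set to it, so the size of that ratio is not a measured one.

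In mesenchymal cells the total of Saa3 hid a difference between clusters. Over all mesenchymal cells it was at 1265 CPM in ORFTOC and 1330 CPM in FTOC, a log2 ratio of -0.07 (-0.16 to 0.02). In mesenchymal cluster 2, 95 ORFTOC cells held 1761 UMIs (1138 CPM) and 16 FTOC cells held 19 UMIs (74.9 CPM), a log2 ratio of 3.93 (3.28 to 4.66). In cluster 1, led by Spp1, Igfbp6 and Mfap5, the levels were 1333 and 1765 CPM, a log2 ratio of -0.41 (-0.50 to -0.31). The airway-like marker Bpifa1 was also among its leading genes. In mesenchymal cells airway-like markers summed to 411 CPM in ORFTOC and 31.5 CPM in FTOC, and their part in the mesenchymal values was not tested. Single cells weigh heavily in the mesenchymal values of Saa3. A single ORFTOC cell held 1099 UMIs, 19.5% of the pool's total, and the 5 richest FTOC cells held 82.5% of theirs. Without the 5 richest cells of each pool the ratio over all mesenchymal cells was 1.62, and in cluster 2 the cells with at least 5 UMIs were 23 of 95 in ORFTOC (24.2%, 16.0 to 34.1) and 2 of 16 in FTOC (12.5%, 1.55 to 38.4), shares that overlap.

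Ccl2, the monocyte chemoattractant, was a mesenchymal and macrophage gene. In mesenchymal cells it was at 1299 CPM in ORFTOC (1266 to 1333) and 961 CPM in FTOC (901 to 1024), a log2 ratio of 0.44. In mesenchymal cluster 2 the levels were 1010 and 426 CPM, a log2 ratio of 1.25 (0.97 to 1.54). The 5 richest FTOC mesenchymal cells held 69.1% of the UMIs of their pool, and without the 5 richest cells of each pool the ratio was 1.53. Macrophages were lower in ORFTOC, at 239 CPM against 581 CPM (log2 ratio -1.28, -1.47 to -1.09), and the ratio stayed at -1.28 without the 5 richest cells. Epithelial cells had 10.1 and 1.95 CPM, under the level set for a count, and the FTOC value was at the 2.56 CPM that free RNA would give.

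Cxcl10, the interferon-inducible ligand of CXCR3, was lower in ORFTOC in all 3 populations. Epithelial cells had 468 CPM in ORFTOC (457 to 478) and 757 CPM in FTOC (742 to 773), a log2 ratio of -0.70, and 18.7% and 26.0% of them held at least 5 UMIs. Cluster 1, where the level was highest, had 741 and 1458 CPM and 93 of 368 against 121 of 273 such cells, while airway-like cells had 259 and 225 CPM. Mesenchymal cells had 243 and 545 CPM, a log2 ratio of -1.17 (-1.32 to -1.01), and mesenchymal cluster 1 had 150 and 535 CPM. With hashtags assigned by ratio the mesenchymal ratio was -0.29 and the epithelial one -1.12, so that each crossed the 2-fold limit. Macrophages had 330 and 1066 CPM, a log2 ratio of -1.69, but 5 of the 44 FTOC macrophages held 94.4% of the UMIs. Without the 5 richest cells of each pool the macrophage ratio turned to 0.70. Thymocyte markers were detected in these macrophages, 8 of 8 genes in each pool, and summed to 174 CPM in ORFTOC and 796 CPM in FTOC. Of the macrophages with at least 5 UMIs of Cxcl10, 7 of 9 in FTOC (77.8%) and 3 of 20 in ORFTOC (15%) also carried the T cell receptor gene Trbc2. Their part in the macrophage values was not tested.

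**Figure D5:**
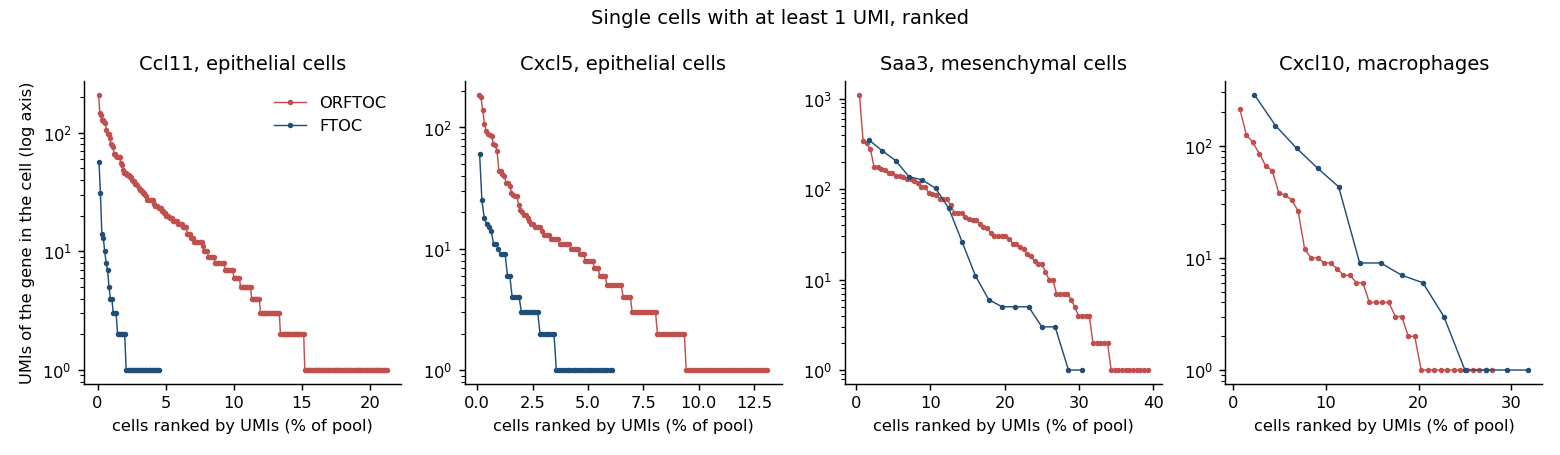
UMIs of a gene in each cell with at least 1 UMI (log axis), with cells ranked from the richest and placed by their percentage of the pool, for Ccl11 and Cxcl5 in epithelial cells, Saa3 in mesenchymal cells and Cxcl10 in macrophages. ORFTOC is red and FTOC blue. Ccl11 extends to 21.2% of ORFTOC and 4.51% of FTOC epithelial cells, and in FTOC macrophages 5 cells hold 94.4% of Cxcl10.

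Cxcl14 was the gene with the smallest epithelial difference. Epithelial cells had 200 CPM in ORFTOC (193 to 207) and 229 CPM in FTOC (221 to 238), a log2 ratio of -0.20. Epithelial cluster 5 went the other way, with 828 CPM in ORFTOC and 473 CPM in FTOC, and 37 of 65 against 55 of 150 cells had at least 5 UMIs. In cluster 1 the levels were 447 and 377 CPM. With the same mix of clusters in both pools the epithelial ratio was 0.35. Mesenchymal cells had 40.0 and 94.5 CPM, a log2 ratio of -1.24 (-1.61 to -0.86) from 178 and 93 UMIs, which was -0.43 without the 5 richest cells of each pool. In macrophages 1 FTOC cell held 23 of 24 UMIs.

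Ccl20, the ligand of CCR6, was detected in 6 epithelial cells of each pool. The 6 ORFTOC cells held 13 UMIs (0.75 CPM, 0.40 to 1.29) and the 6 FTOC cells held 138 UMIs (11.2 CPM, 9.42 to 13.3), of which 3 cells held 62, 45 and 23. Epcam was detected in 66.7% of these 3 cells. By cluster, 74 UMIs lay in Aire mTEC-like cells (34.2 CPM), 75 in cluster 1 and 2 in cluster 3. The Aire mTEC-like levels were 8.03 CPM in ORFTOC and 47.9 CPM in FTOC, and in each pool 1 such cell had at least 5 UMIs. The share of cells with a UMI was 0.49% (0.18 to 1.06) and 0.63% (0.23 to 1.37) of the epithelium, which overlap, so the difference between pools rests on 3 FTOC cells.

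Cells that expressed one of these genes did not simply express all. In epithelial cells with at least 3000 UMIs, thinned to that number, Saa3 was seen in 17.4% of cells with Cxcl5 and in 3.55% of all cells, and Cxcl5 in 21.6% of cells with Cxcl1 and in 6.45% of all. Cells with Ccl11 held Cxcl5 in 6.78% and Cxcl10 in 25.4%, close to the 6.45% and 25.9% of all cells. These shares join both pools, while the cells rich in Ccl11 were mostly from ORFTOC (138 against 8). Cxcl5 was higher and Cxcl10 lower in the ORFTOC epithelium. The closeness therefore does not show that the genes are independent within a pool. Among mesenchymal cells Ccl2 was seen in 67.3% of cells with Cxcl10 and in 40.0% of all. These shares are descriptions over cells that share a library and a cluster.

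Among the receptors, Ccr6, Cxcr3 and Ccr2 were highest on immune cells. Ccr6 was found at 202 CPM in immune cluster 3 (48.6% of cells) and at 532 CPM in the small cluster 19. Cxcr3 was highest in immune cluster 5 (160 CPM, 63.9% of cells). Ccr2 was highest in gamma-delta T-like cells (254 CPM, 61.3% of cells). The receptors of the granulocyte chemokines were nearly missing: Cxcr1 had 0 UMIs in the populations shown, Cxcr2 had 4 UMIs in its highest population, epithelial cluster 3, and Ccr3 had 11 UMIs in Aire mTEC-like cells and 5 in macrophages. Receptors at 20 CPM or more in a pool were 1 of 16 in epithelial cells, the scavenger receptor gene Ackr4, which was lower in ORFTOC (10.1 against 33.1 CPM). Of all genes at that level 1.52% were lower there. In macrophages 5 of 16 were at that level, of which Ccr2 (21.4 against 7.91 CPM) and Cxcr4 (96.9 against 36.4 CPM) were higher in ORFTOC. Of all genes 2.2% were higher there, and the FTOC values come from only 44 macrophages.

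Other genes of the same kind moved in part with the 8. Counts are out of the listed genes that reached 20 CPM in a pool. In epithelial cells, where 3.05% of all genes were higher and 1.52% lower, 3 of 7 other inflammatory chemokines were higher in ORFTOC and 0 lower, namely Cxcl2 (log2 ratio 2.14), Ccl7 (1.84) and Cxcl17 (1.36), while Ccl5, the most abundant at 158 CPM, was at 0.33, Cx3cl1 at -0.23 and Cxcl9 at -0.58. Of the 4 homing chemokines Ccl25 (2.22) and Ccl19 (1.48) were higher and Cxcl12 (-1.24) lower. Ccl25 is a leading gene of the cTEC-like cluster, which had 252 ORFTOC and 32 FTOC cells, and 9 of 9 cTEC markers, detected in each pool, summed to 10338 and 3481 CPM. Acute phase and antimicrobial genes were higher in 6 of 8 cases and lower in 0. Among them were the iron-binding proteins Ltf (3.36) and Lcn2 (2.22, 1844 CPM over both pools) and complement C3 (2.40), whereas the lectin Reg3g was at -0.57 and S100a8 at -0.67. Airway-like cells, led by Bpifa1, Slpi, Reg3g and Lcn2 among others, were 336 of 1230 and 103 of 953 epithelial cells, and their 9 markers summed to 20887 and 5628 CPM. The part of the cluster mix in these lists was not tested. Further, 1 of 18 NF-kB response genes was higher, Cebpb (1.34), and Nfkbia was at 0.14, a share near that of all genes. Of 20 interferon response genes 0 were higher and 1 lower, Gbp4 (-1.02), and Isg15 was at -0.08.

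In mesenchymal cells, with 1.74% of all genes higher and 2.94% lower, 0 of 9 other inflammatory chemokines were higher and 4 were lower, namely Ccl5 (-2.44), Cxcl13 (-2.14), Pf4 (-1.50) and Cx3cl1 (-1.30), while Ccl7, the neighbour of Ccl2 and the most abundant at 469 CPM, was at 0.32. Acute phase and antimicrobial genes were higher in 3 of 7, Reg3g (4.28), Lcn2 (1.97) and Ptgs2 (1.09), of which Reg3g and Lcn2 were leading genes of the airway-like epithelium. Interferon response genes were lower in 2 of 17, Rsad2 (-1.94) and Irf1 (-1.23). No NF-kB response gene of 18 passed 2-fold in either direction. In macrophages, with 2.2% of all genes higher and 5.35% lower, 4 of 15 other chemokines were higher, with the neutrophil chemokine genes Cxcl3 (3.49) and Cxcl2 (1.31) and with Ccl17 (2.72) and Ccl5 (2.41), and 4 were lower, Ccl7 (-1.96), Cxcl9 (-1.93), Ccl12 (-1.35) and Ccl4 (-1.21). Interferon response genes were lower in 4 of 20, Iigp1 (-2.03), Gbp5 (-1.81), Irf1 (-1.69) and Gbp4 (-1.12), and NF-kB response genes in 3 of 20, Vcam1 (-1.71), Traf1 (-1.40) and Icam1 (-1.20). The FTOC macrophages numbered 44 and carried the higher sum of thymocyte markers given above, whose part in these values was not tested.

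Cytokines known to act on these genes came from distinct immune cells. Il13 was at 1062 CPM in natural killer or innate lymphoid-like cells, with 236 cells in ORFTOC and 20 in FTOC, where it was at 1135 and 427 CPM. The marker list behind that name joins both kinds of cell, and this cluster is led by Il13, Hs3st1 and Areg. Il4 was at 245 and 76.6 CPM in the same cells. The next highest levels of Il13 were 39.3 CPM in epithelial cluster 7 and 35.6 CPM in Aire mTEC-like cells. Il17a was highest in gamma-delta T-like cells (313 CPM), Il22 in immune cluster 19 (979 CPM) and cluster 3 (578 CPM), and Il1b and Tnf in macrophages (350 and 127 CPM). Il13 and Il17a were each among the marker genes that gave their cluster its name. For these cytokines the name of the cluster and the level are therefore not independent. Of the 12 type 2 cytokine response genes listed, only 6 reached 20 CPM in the epithelium of a pool. Of these 6, 3 were higher in ORFTOC, namely Timp1 (2.36), the receptor chain Il4ra (1.19) and its signal transducer Stat6 (1.05). Of the 6, 0 were lower, and Il13ra1 was at 0.24. Among all genes at that level 3.05% were higher there. In mesenchymal cells 0 of 6 passed 2-fold, and Il4ra was at -0.16. Whether these cytokines take part in the differences in Ccl11 was not tested.

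Genes with the most similar profile were sought over 52 profiles of cluster and pool among 9417 genes, by Pearson's r of log2(CPM + 10). The profiles share 1 library, so r is a description. Ccl2 was most like Olfml3 (0.95), Ccl7 (0.94) and Mmp19 (0.93), and Cxcl1 most like Ltbp1 (0.94), Dlc1 (0.93) and Rnd3 (0.91). Cxcl5 was most like Scara3 (0.93), Tm4sf1 (0.92) and Ltbp1 (0.92), and Saa3 most like Olfml2b (0.90), Ccn4 (0.90) and Ramp2 (0.89). Cxcl14 followed Snai2 (0.93), Sema6a (0.92) and Schip1 (0.92). Ccl20 followed Iglc3 (0.88), Psors1c2 (0.85) and Hamp (0.85), all highest in the FTOC cells of the Aire mTEC-like cluster. Ccl20 itself reached only 47.9 CPM there, under the 50 CPM asked of the genes compared with it. Only 1 of these 66 cells had at least 5 UMIs of Ccl20, so its r rests on very few cells. The least close were Ccl11, with Lox (0.83), C1ra (0.82) and Col6a1 (0.82), and Cxcl10, with Capn2 (0.83), Icam1 (0.81) and Nfkbiz (0.80).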

How the data were processed

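One lane of droplet single-cell RNA sequencing held the gene and hashtag counts of both pools. Per their notes the authors aligned the reads to mm10 with Cell Ranger 6.1.2. The header of the deposited matrix names another version, and whether the counts depend on it was not tested. The deposited values were raw UMI counts for every barcode, and hashtag HTO_1 stood for FTOC, HTO_2 for ORFTOC. The T cell receptor lists were not used here. Cells were kept with at least 600 genes and 0.4 to 10% mitochondrial UMIs. Hashtags were assigned with HTODemux (quantile 0.99), doublets between pools were dropped, and 591 further cells were removed by the share of such doublets among 50 neighbours. Of 705161 barcodes (103984163 UMIs), 8392 cells were kept. SCTransform values (Seurat 5.3.0, sctransform 0.4.2, R 4.3.3), without the 8 genes, gave 18 principal components and clusters at resolution 0.4, or 1 for immune cells. Clusters were named from marker lists by a rule whose limits were set after their leading genes had been seen. Raw counts were summed per pool and population (Python 3.11.15, numpy 2.4.6, scipy 1.17.1, pandas 2.3.3, matplotlib 3.10.9). Intervals are 95% exact Poisson or Clopper-Pearson and cover counting error only. The interval of a ratio is exact and conditional on the sum. Counts under 3 were set to 3 in ratios. With 1 sample per pool there is no test and no p-value. The 2-fold rule was also run on simulated sums with counting error only. These lack the concentration of UMIs in few cells seen here, so nothing is read from that run.

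The free RNA profile came from barcodes with 10 to 100 UMIs, scaled so that Trbc2, Cd8b1 and Rag1 were explained. Genes were named by a rule: all 8, the 3 genes most like each, and from each list the 3 most abundant and the 2 largest and 2 smallest ratios, not all of which are printed. Other genes named, the minimum of 5 UMIs for a rich cell and the leading genes of clusters were chosen after values had been seen. The genes and lists were chosen with earlier results of these data known. Alternatives are given below.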

Additional observations from a re-analysis of the deposited data

Results flagged for a closer look

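The pool difference of Ccl11 had opposite directions in 2 populations. Its log2 ratio of ORFTOC over FTOC was 3.98 in epithelial cells and -1.01 in mesenchymal cells. The latter was just past 2-fold and under it in 6 alternative settings, with -0.12 when hashtags were assigned by ratio and -0.82 to -0.89 in the other 5. Saa3 had a ratio of 2.91 in epithelial cells and of -1.06 in macrophages, where the 44 FTOC cells held 41 UMIs, 39 of them in 1 cell. The free RNA estimate there was 60.9 CPM against 64.9 CPM found, but it also gave 26.5 CPM of Ccl11 where 0 UMIs were found. With it subtracted the ratio was 1.80, with the FTOC value set to the limit of 3 UMIs. The differences between populations were not tested, because each pool is 1 sample.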

How the results depend on the processing

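Each choice was changed alone. No paired analysis was possible because each pool is 1 sample. For the same reason no replicate could be left out. Over 22 ratios and 280 values under the alternatives, 205 stayed within the interval of the reported value, 73 moved out of it and 2 that had been past 2-fold turned around. Some values that had not been called also changed sign, namely Cxcl14 and Ccl2 in epithelial cells, Cxcl5 and Saa3 in mesenchymal cells and Ccl11 and Cxcl1 in macrophages. The causes were not tested. Without the 5 richest cells of each pool, 2 genes were higher in mesenchymal cells (0 as reported), 1 was lower there (3) and 1 was lower in macrophages (4), and Cxcl10 in macrophages turned to 0.70. With free RNA subtracted, 2 genes were lower in macrophages, and Saa3 there turned to 1.80 with its FTOC value set to the limit of 3 UMIs. With hashtags assigned by ratio, 2 genes were lower in epithelial cells (0) and 2 in macrophages, and with doublets of a pool kept 1 was lower in epithelial cells. Assignment by ratio changed the populations, with 1363 ORFTOC and 684 FTOC epithelial cells and 379 and 31 mesenchymal cells. It also gave a mesenchymal cluster of 85 cells led by Bpifa1 and Krt5. Of 24 shares of cells with a UMI, 21 were above that of DP thymocyte-like cells, and 13 after thinning to 3000 UMIs, a depth that only 110 of those cells reached. The count of genes higher in epithelial cells was 3 or 4 in every setting run, with 3 under the same mix of clusters, hashtags by ratio and doublets kept, and the ratio of Ccl11 there ranged from 3.71 to 5.15. Ccl2 in epithelial cells, under the minimum level, went from 2.38 to -1.04 with hashtags by ratio, -0.72 with doublets kept and 0.68 with log-normalised counts. Leaving out epithelial cluster 7, an alternative chosen after seeing the data, gave 3.99 for Ccl11. The population with the highest level was the same for 8 of 8 genes in each setting in which it was computed. The pools could not be weighted to 1 mix of clusters in macrophages, which form 1 cluster. FTOC held only 56 mesenchymal cells and 44 macrophages.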

Other observations

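Immune cluster 15, which was grouped with the immune cells but is led by Pth, the parathyroid hormone gene, and by Chga, held UMIs of several of the genes. Its 59 ORFTOC cells had 75 UMIs of Ccl11 (175 CPM) and 70 of Saa3 (163 CPM), and its 69 FTOC cells had 1 and 7. Ccl2 went the other way there, with 1 UMI in ORFTOC and 54 in FTOC (82.3 CPM). The natural killer or innate lymphoid-like cluster, which is led by Il13, Hs3st1 and Areg, also expressed Cxcl10. It held 439 UMIs in 236 ORFTOC cells (325 CPM) and 268 UMIs in 20 FTOC cells (1710 CPM). DP thymocyte-like cells had 29.8 CPM of Cxcl10 in ORFTOC and 7.33 CPM in FTOC, from 31 and 19 UMIs.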
